A study of Homo sapiens with 4 samples.

Results

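The MYC, MAX and MXD network was examined in GIST-T1, an established cell line from a human gastrointestinal stromal tumor, after transfection of a miR-34a mimic. The members were MYC, MYCN, MAX, MXD1, MXD3, MXD4, MXI1, MNT, MLX and MGA, taken by exact gene name from the annotation of the array, with every probe of each gene. They were 10 of the 36337 gene names on the array and were measured by 21 of its 50599 probes. The miR-34a mimic group held 2 arrays of cells given 100 pmol of a miR-34a mirVana mimic, and the negative control group held 2 arrays of cells given 100 pmol of a negative control mimic of the same type. Both groups started from 3000000 cells, were electroporated with a Nucleofector device and were harvested for total RNA 48 h later. No cells were left without transfection, so that any effect shared by both RNAs is not seen. The labels number the replicates but do not say that they were separate cultures, and the p-values then measure only the spread between these samples, which may be technical. The question was which members differ in mRNA level between the mimic and the control.

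MYC and MYCN are transcription factors that pair with MAX to bind E-box DNA and activate genes for growth, ribosome production and the cell cycle. MXD1, MXD3, MXD4, MXI1 and MNT compete with them for MAX and recruit SIN3 and histone deacetylases to repress the same kind of genes. MGA pairs with MAX within a Polycomb complex, and MLX is a MAX-like partner of the glucose-sensing Mondo proteins and of some MXD proteins. miR-34a is a p53-induced microRNA, and MYC and MYCN are among the genes studied as its targets.

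The mature miR-34a is shown first because its seed, bases 2 to 8 in capitals, is the part that pairs with target mRNA, and it is followed by the 2 other mature miRNAs with this seed in the RefSeq table used. The sequences are those of RefSeq, and miR-34a-5p lies at chr1:9151735-9151756 on the minus strand of GRCh38.p14.
hsa-miR-34a-5p: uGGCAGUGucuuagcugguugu
hsa-miR-449a: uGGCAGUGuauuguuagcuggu
hsa-miR-449b-5p: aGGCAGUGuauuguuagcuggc

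The match to that seed in DNA letters, CACTGCC, was searched in the sense sequence of every array probe, each 60 bases long. It lay in 2 of the 21 member probes and in 0.435% of all probes. Stretches of these probes of 30 bases are printed with the match in capitals, the first at chr2:16086789-16086818 on the plus strand and the second at chr4:2251280-2251309 on the minus strand of hg19, the build of the array annotation.
MYCN: actaattcttaCACTGCCtgtatactttag
MXD4: caaaaaagtaaaatgctgCACTGCCcagca
The match was not followed by A in either probe, and the form CACTGCCA was in 0 member probes and 0.128% of all probes. The exon or untranslated region that holds each site was not annotated here. A probe covers only a short stretch of its mRNA, so that sites elsewhere in the members were not searched. The MYCN probe was lower with the mimic and the MXD4 probe was higher, as given below. Among the 98 tested probes that held CACTGCC, the median log2 difference was -0.11 and 70.4% were lower with the mimic, against 51.5% of all tested probes.

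Between 41.8% and 45.2% of the probes were well above background on each array, and replicates differed over the tested probes with an SD of 0.337 log2 units for the mimic and 0.29 for the control. All probes of KIT, ANO1, ETV1, PDGFRA, CD34 and PRKCQ, genes typical of gastrointestinal stromal tumors, were well above background on all 4 arrays. So were the single probes of 2 markers of other cell types, EPCAM (epithelial) and DES (smooth muscle). The probes of CDH1 (epithelial), PECAM1 (endothelial) and S100B (Schwann cell) were well above background on 0 arrays, and the 5 probes of PTPRC, a leukocyte gene, on at most 2. In bulk RNA, fewer cells that express a gene and less of its RNA per cell cannot be told apart.

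MYC was higher and MYCN lower with the mimic, while MAX, the partner they share, differed little. Of the 21 member probes, 16 were tested, all of them well above background on all 4 arrays, and they covered all 10 genes. By limma with Benjamini-Hochberg adjustment over 21472 probes, 0 of the 16 member probes had an adjusted p under 0.05, as did 0% of all tested probes in either direction, and the smallest adjusted p on the array was 0.0948. At an unadjusted p under 0.05, 1 member probe was lower, where 11.6% of all tested probes were, and 3 were higher, where 12.7% were. When the variance was modelled along signal (limma with a variance trend), 1 member probe, that of MYCN, was called lower, against 3.6% of all tested probes, and 0 were called higher, against 3.82%. Past 1.5-fold, 1 member probe was lower, against 4.8%, and 0 were higher, against 2.11%. Among the 20065 probes well above background on all 4 arrays, as these 16 were, 512 were lower and 285 higher past 1.5-fold. The 2 mimic arrays lay below the 2 control arrays for 6 of the 16 member probes, against 30.1% of all probes, and above them for 6, against 30.4%. These counts are near the shares for all probes. The other 5 probes were not tested: single further probes of MYC, MAX, MXD3 and MXI1 were not well above background on any array, and a second MGA probe was so on mimic array 2 alone.

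**Figure D1:**
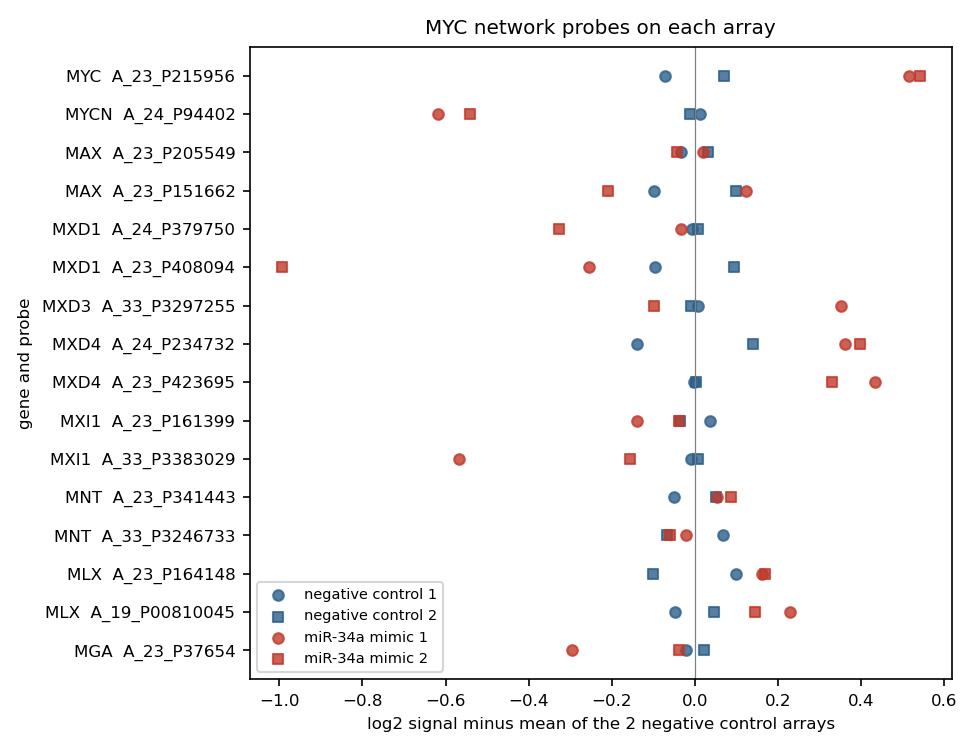
Values of the 16 tested member probes on each array, as the log2 signal minus the mean of the 2 control arrays (x axis), with a line for each probe. Red marks are the miR-34a mimic arrays and blue marks the negative control arrays, with circles for replicate 1 and squares for replicate 2. MYC and both MXD4 probes lie to the right of the controls, MYCN lies to the left, and mimic array 2 lies far left for 1 MXD1 probe.

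Values are given as the scaled log2 signal, the log2 of the processed signal minus the 75th percentile of its array, and a level is compared only with levels of the same probe. MYCN, the MYC family member best known from neural tumors, was measured by probe A_24_P94402 at chr2:16086767-16086826. Its scaled log2 signal was 3.48 and 3.55 on the mimic arrays and 4.11 and 4.08 on the control arrays. Both mimic arrays lay below both control arrays, and the gap was far wider than the spread within either group. The log2 difference, mimic minus control, was -0.58 with a standard error of 0.06 and a 95% interval from -0.75 to -0.41, a 1.496-fold lower level, just short of the 1.5-fold line. The adjusted p was 0.0948 by limma and 0.0102 by limma with the variance trend. On the linear scale the processed signal was 1616 and 1712 with the mimic and 2537 and 2414 with the control.

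MYC was measured by probe A_23_P215956, which is spotted 10 times on each array. Its scaled log2 signal was -1.74 and -1.72 on the mimic arrays and -2.33 and -2.19 on the control arrays. Both mimic arrays lay above both control arrays. The log2 difference was 0.53 with a standard error of 0.07 and a 95% interval from 0.31 to 0.75, a 1.44-fold higher level, with an adjusted p of 0.0954 by limma and 0.131 with the variance trend. The probe was dim, with processed signals of 43.3 and 44.3 with the mimic and 29.2 and 31.2 with the control. After normexp background correction with an offset of 50, which compresses differences of dim probes, the log2 difference was 0.16. Over single spots, 15 of the 20 mimic spots lay above the highest control spot, and 15 of the 20 control spots lay below the lowest mimic spot. The SD over the spots of an array was 0.17 and 0.13 for the mimic and 0.29 and 0.17 for the control, and spots of 1 array are repeat measurements of 1 sample.

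**Figure D2:**
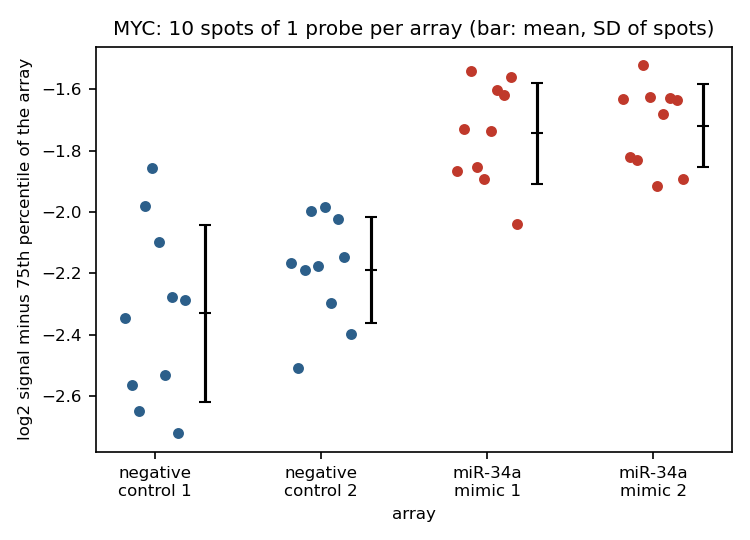
Scaled log2 signal (y axis) of the 10 spots of the MYC probe on each of the 4 arrays, with blue points for the negative control and red points for the miR-34a mimic. Bars give the mean and SD over spots, and the means are -2.33 and -2.19 for the control and -1.74 and -1.72 for the mimic.

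The difference between MYC and MYCN within an array does not depend on the scaling between arrays, and only its change between groups is read here. It was -5.22 and -5.27 on the mimic arrays and -6.44 and -6.27 on the control arrays, so that the groups did not overlap. The change of 1.11 log2 units had an exact two-sided permutation p of 0.333, the smallest that 2 against 2 arrays allow. MYC and MYCN had each separated the groups, in opposite directions. The lack of overlap in their difference therefore followed from those values and adds nothing to them. The 3 genes whose centred values over the 4 arrays were nearest to those of MYC were C1S, TPM1 and ABCG4, with root mean square distances of 0.014, 0.014 and 0.016 log2 units, and the probe of ABCG4 was well above background on 3 arrays.

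MAX, a shared partner of MYC, MYCN, the MXD proteins, MNT and MGA, was nearly level. Probe A_23_P205549 read 3.35 and 3.29 with the mimic and 3.30 and 3.36 with the control, and its log2 difference was -0.01 with a 95% interval from -0.19 to 0.17. Probe A_23_P151662, matched to another MAX transcript, read -0.70 and -1.03 against -0.92 and -0.73, with a log2 difference of -0.04 and an interval from -0.49 to 0.40. The groups overlapped for both, and the interval of the first probe was narrow where that of the other was wide.

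MXD4, a repressive MAX partner, was higher on both of its probes. Probe A_23_P423695, at chr4:2251280-2251339 and with the seed match printed above, read 0.17 and 0.06 with the mimic and -0.27 and -0.27 with the control. Probe A_24_P234732, at chr4:2249759-2249818, read 0.40 and 0.44 against -0.10 and 0.18. Both mimic arrays lay above both control arrays for each probe. The log2 difference was 0.38 on both probes, 1.30-fold, with standard errors of 0.06 and 0.12 and adjusted p of 0.106 and 0.184 by limma, and with the variance trend the adjusted p was 0.0613 and 0.106. The control arrays were unlike on A_24_P234732, whose log2 difference was 0.24 without control array 1 and 0.52 without control array 2, while that of A_23_P423695 was 0.38 without either.

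MXD1, induced when many cell types differentiate, had the only tested member probe past 1.5-fold, and 1 array set its size. Probe A_23_P408094 read -0.67 and -1.41 with the mimic and -0.51 and -0.32 with the control. Its log2 difference was -0.62 with a standard error of 0.29 and an adjusted p of 0.288 by limma, and without mimic array 2 it was -0.25. The other MXD1 probe, A_24_P379750, read 1.62 and 1.33 against 1.64 and 1.66, a log2 difference of -0.18 with an adjusted p of 0.416, which was -0.33 without mimic array 1 and -0.03 without mimic array 2. Mimic array 2 was the lower of the mimic arrays on both probes. The 3 genes nearest to probe A_23_P408094 over the 4 arrays were WFIKKN2, HNRNPR and GAS2L3, at distances of 0.035, 0.049 and 0.05. Mimic array 2 was the lowest array for each of them, and the probes of WFIKKN2 and GAS2L3 were well above background on 3 arrays.

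No probe of MXI1 or MXD3 had an unadjusted p under 0.05 by limma. MXI1, also called MXD2, read 0.86 and 0.96 with the mimic and 1.04 and 0.97 with the control on probe A_23_P161399, a log2 difference of -0.09 with a 95% interval from -0.29 to 0.11. On its probe A_33_P3383029 it read -0.07 and 0.34 against 0.49 and 0.51, a log2 difference of -0.36 with an interval from -0.83 to 0.11. The mimic arrays lay below the control arrays on both, and on the latter the SD was 0.29 for the mimic and 0.01 for the control. Its log2 difference was -0.16 without mimic array 1 and -0.57 without mimic array 2.
MXD3, which is expressed in proliferating cells, read 3.45 and 2.999 with the mimic and 3.11 and 3.09 with the control. The mimic arrays lay on either side of the control arrays, and the log2 difference of 0.13 turned to -0.10 without mimic array 1.

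MNT, the most broadly expressed repressive partner of MAX, had log2 differences of 0.07 and -0.04 on its 2 probes, with 95% intervals from -0.12 to 0.26 and from -0.25 to 0.17. MLX had log2 differences of 0.17 and 0.19, with intervals from -0.10 to 0.43 and from -0.02 to 0.39, and both mimic arrays lay above both control arrays on each probe. MGA read 1.45 and 1.71 with the mimic and 1.72 and 1.77 with the control, a log2 difference of -0.17 with an interval from -0.49 to 0.15. Without mimic array 1 the MGA value was -0.04, and without mimic array 2 it was -0.30. The MLX value of 0.17 was 0.27 without control array 1 and 0.07 without control array 2. None of these 5 probes had an unadjusted p under 0.05 by limma.

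**Figure D3:**
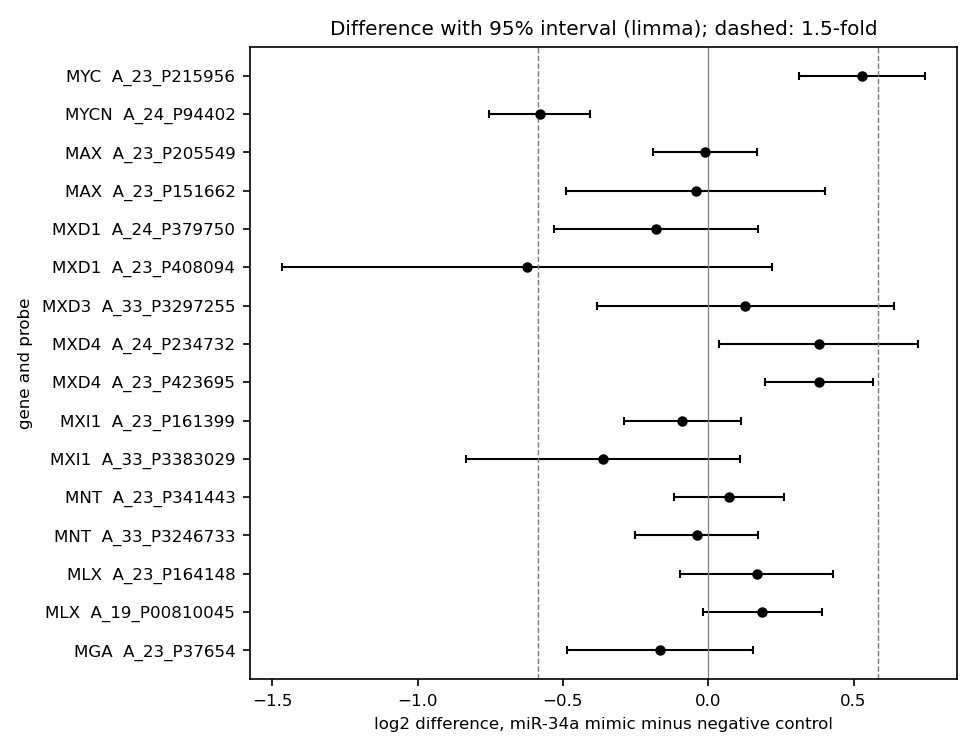
Log2 difference, miR-34a mimic minus negative control (x axis), of the 16 tested member probes, with 95% intervals from limma. Dashed lines mark 1.5-fold in either direction. The intervals of MYC, MYCN and both MXD4 probes do not reach 0 before adjustment, and the wide interval of the MXD1 probe A_23_P408094 does.

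The genes that the network acts on or works with were read from lists, with the probe of highest mean signal for each gene. Among all 16190 gene names tested, the median log2 difference was -0.01, 51.3% were lower with the mimic, and 3.97% were called lower and 4.29% higher by limma with the variance trend. The MYC-activated list, of genes for ribosome production, nucleotide and polyamine synthesis and cell cycle entry, had 48 of its 58 tested genes lower and a median of -0.12. Both mimic arrays lay below both control arrays for 41 of these 58 genes, against 30.6% of all genes, and above them for 7, against 31.3%. With the variance trend 6 of them were called lower and 1 higher, and 0 were past 1.5-fold. The largest differences were those of CDK4, a kinase of cell cycle entry that is also studied as a miR-34a target, and CDC25A, a phosphatase that activates cyclin-dependent kinases.
CDK4 read 4.93 and 5.02 with the mimic and 5.56 and 5.46 with the control, a log2 difference of -0.54 with an adjusted p of 0.0954 by limma and 0.0144 with the trend. CDC25A read 1.91 and 1.98 against 2.48 and 2.46, a log2 difference of -0.53 with adjusted p of 0.0948 and 0.013. The other genes called lower were SHMT1, PA2G4, NOP56 and NOP16, at log2 differences from -0.38 to -0.21. The other tested probe of SHMT1 was at -0.23 and that of PA2G4 at -0.34, and neither was called with the trend. Of the further NOP56 probes, that at -0.22 was called. That at -1.34, well above background on 3 arrays, was not. TFRC, the transferrin receptor, was called higher, at 0.31.

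The E-box CACGTG, a palindrome that reads the same on both strands, was in 7.26% of all 35116 RefSeq promoters of 300 bases and in 40.3% of the 62 promoters matched to MYC-activated genes. The 25 tested genes of that list with the E-box centred on a log2 difference of -0.16, with 22 lower. The 23 with a promoter but no E-box centred on -0.08, with 19 lower. The other 10 had no promoter in the table and centred on -0.09, with 7 lower. The difference between these groups was not tested. Of the network members, MXD4, MNT and MLX held the E-box, among the 9 with a promoter in the table.

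Of 8 tested MYC-repressed genes, 4 were lower and 4 higher, and the median was 0.14, which turned to -0.12 with no filter on dim probes, where the 2 untested genes of the list enter. GAS1, which arrests the cell cycle, was called lower with the variance trend, from 3.08 and 3.11 in the control to 2.13 and 2.28 with the mimic, a log2 difference of -0.89. CDKN1C, a cyclin-dependent kinase inhibitor, was also called lower at -0.54, and CLU, NDRG2 and NDRG1 were called higher at 0.57, 0.35 and 0.32, all with the trend. On the other NDRG2 probe the groups overlapped, at 0.15, and it was not called.

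The mRNAs of proteins that the network works with had list medians near that of all genes. Most coactivators were slightly higher with the mimic, and a few genes of the lists lay apart. Of 13 coactivators and cofactors of MYC that are reported here, 2 were lower, the median was 0.07, and 0 were called by limma with the variance trend or had an unadjusted p under 0.05 by limma. Both mimic arrays lay above both control arrays for 10 of these 13 genes, against 31.3% of all genes. The largest differences were those of CREBBP, a histone acetyltransferase, at -0.46 and KAT5, another acetyltransferase, at 0.25. CREBBP read 1.32 and 0.66 with the mimic and 1.41 and 1.51 with the control, so that mimic array 2 lay far below the others. Of 14 tested genes of the SIN3 and histone deacetylase corepressor that the MXD proteins recruit, 9 were lower and the median was -0.03. HDAC1, a deacetylase of the complex, was called lower with the variance trend, from 5.41 and 5.40 to 4.73 and 4.74, a log2 difference of -0.67, and HDAC2, its other deacetylase, was at -0.07 and not called. SAP30 and RBBP4 were called lower with the trend at -0.30 and -0.22, with adjusted p of 0.112 and 0.158 by limma without it. Of the 4 RBBP4 probes, the groups overlapped on 2, at -0.07 and -0.04.

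Among 12 tested genes of MYC protein turnover, the median was 0.00, PPP2R5A was called lower at -0.33 and STUB1 higher at 0.24, both with the variance trend. These genes act on MYC protein, which was not measured. The MGA Polycomb complex had a median of -0.02 over 10 tested genes with 0 called, and its largest differences were those of YAF2 at -0.29 and RNF2 at -0.15. Of the genes driven by MLX and its partner MondoA, TXNIP, an inhibitor of glucose uptake, was called lower with the trend at -0.70, from 4.82 and 4.79 to 4.11 and 4.10, and ARRDC4, a related arrestin, was at 0.42 and not called. MYCL, another MYC family gene, was at 0.38 with an adjusted p of 0.178 by limma, MLXIPL was at 0.14 and MLXIP, which encodes MondoA, at 0.08, and none of these 3 was called.
For scale, 16 tested genes of a list of often-studied miR-34a targets had a median of -0.52 with 14 lower, and with the variance trend 10 were called lower and 1 higher. The leading genes were PDGFRA at -1.53, MDM4 at -1.42, CCNE2 at -1.16, BCL2 at -0.76, NOTCH1 at -0.71 and FOXP1 at -0.69. Every tested probe of MDM4, BCL2 and NOTCH1 was called lower with the trend. The other CCNE2 probe, at -0.69, and the other FOXP1 probes, at -0.46 and -0.15, were not. The log2 difference of MYCN was close to the median of that list, and that of MYC was opposite in sign.

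**Figure D4:**
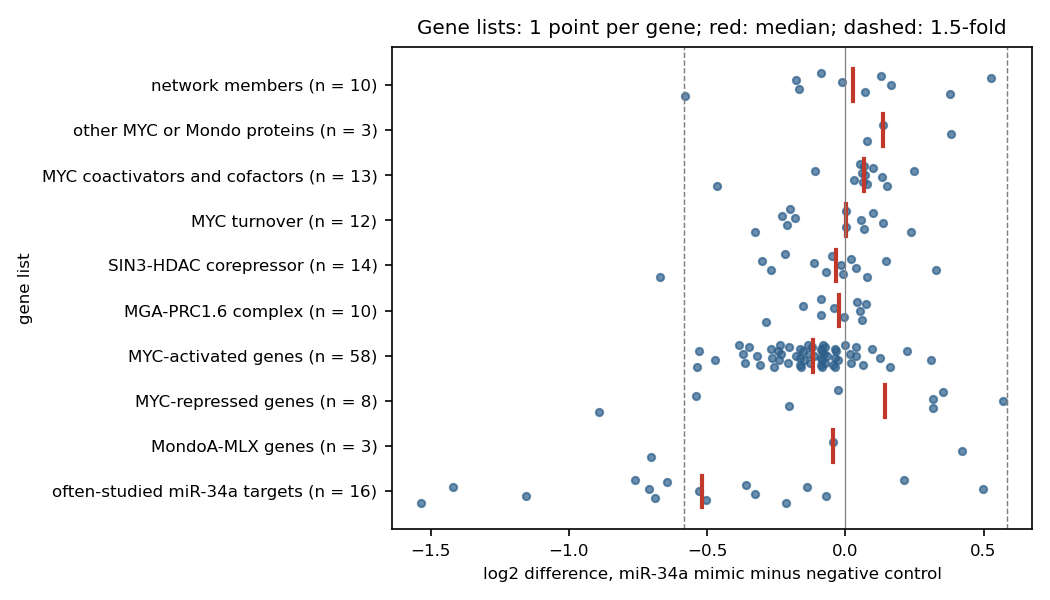
Log2 difference, miR-34a mimic minus negative control (x axis), of every tested gene of each list, with 1 point per gene and a red line at the median. Dashed lines mark 1.5-fold. The MYC-activated genes centre at -0.12 with 48 of 58 below 0, and the often-studied miR-34a targets centre at -0.52.

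The log2 differences of the tested MYC, MYCN and MXD4 probes kept their direction in all 15 other ways of processing. Ways that changed only the filter on dim probes or the test left these log2 differences as they were by construction. Only the other ways could have turned them. MYC ranged from 0.16 with normexp to 0.92 with scaling to the median of each array, and MYCN from -0.62 without mimic array 2 to -0.19 with median scaling. Median scaling moved the median of all genes to 0.38, and relative to that shift MYC was at 0.54, MYCN at -0.57 and the MYC-activated median at -0.11.

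**Figure D5:**
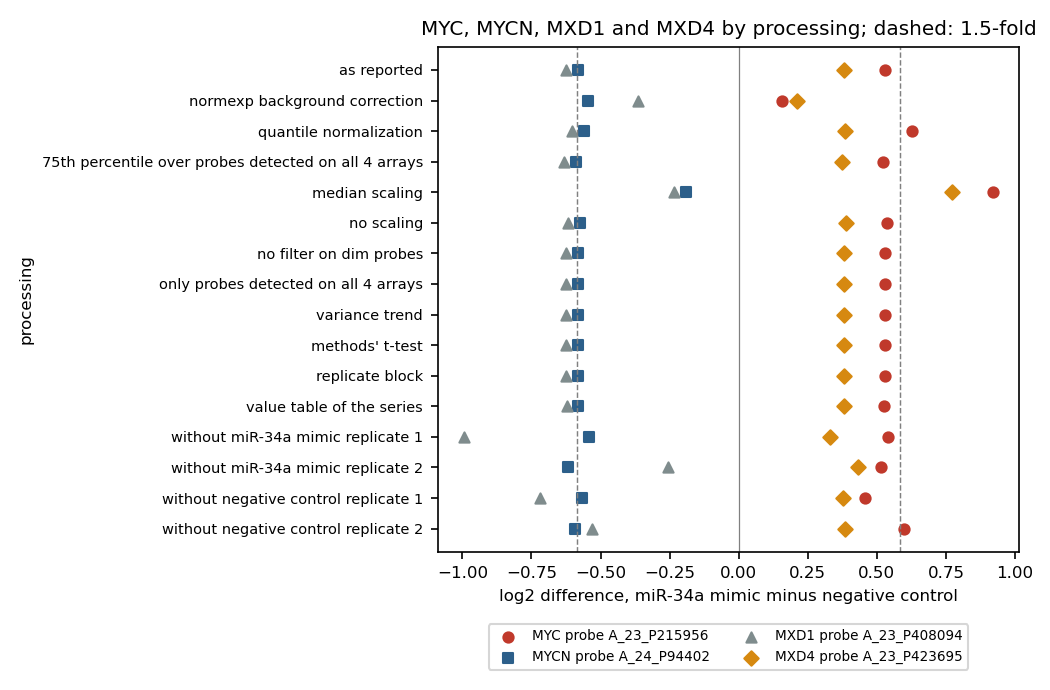
Log2 difference, miR-34a mimic minus negative control (x axis), of the MYC, MYCN, MXD1 and MXD4 probes named in the key, under the reported processing and the 15 alternatives (y axis). Dashed lines mark 1.5-fold. MYC stays right of 0 and MYCN left of 0 in every line, and the MXD1 probe moves from -0.99 to -0.25 when 1 or the other mimic array is left out.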

How the data were processed

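GIST-T1 cells were profiled on 4 one-color Agilent SurePrint G3 Human GE v2 arrays, 2 per condition, and the groups were taken from the sample labels. The authors deposited the intensity of every spot from Agilent Feature Extraction 10.7.3.1 (10.7 in the submitters' processing notes), which comprises a background-subtracted processed signal, the unprocessed spot and local background brightness, and flags for outlying, saturated or detected spots. A second deposited file gave the processed intensity for the 4 arrays together. Neither was scaled between arrays.

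Control spots and 293 to 424 outlier spots per array were left out, 0 spots were saturated, and replicate spots were averaged per probe. From each log2 signal the 75th percentile over all probes of that array was subtracted. The lmFit and eBayes functions of limma 3.58.1 (R 4.3.3, version 1.17.8 of data.table) were run over the 21472 probes detected (well above background) on the 2 arrays of 1 or both conditions, with Benjamini-Hochberg adjustment. The fold threshold was 1.5, as in the study. The fit was tested on simulated data with 100 probes changed at each of 2 sizes. By limma, 44 were called at a log2 difference of 1 and 59 at 1.5. With the variance trend, 50 and 63 were called. False calls among the unchanged probes were 2 by limma and 4 with the trend. The spread of each simulated probe was that seen between its own replicate arrays. The simulated shares are not those of the real arrays, where limma called 0 probes. Smaller changes, such as those of MYC and MYCN, were not simulated.

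The members, gene lists and rules were chosen with earlier results of these data known. All members were named, with the log2 difference of every tested member probe. Also named were the 3 genes whose values were nearest to those of the MYC probe and of the member probe with the largest difference. Of each other list, the genes named were those past 1.5-fold without overlap, at most 6, or otherwise the 2 with the largest difference. A gene of the coactivator list is not reported here and was left out of its counts. Further genes called with the variance trend were named after their values were seen, as were ARRDC4, HDAC2 and MLXIP. Alternatives were normexp with an offset of 50, quantile, median, detected-probe or no scaling, other filters on dim probes, a variance trend, the methods' t-test, the replicate number as a block, the second file in place of the spot files, and leaving out each array. All arrays shared 1 slide and 1 scan. The number of arrays limits the precision.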

Additional observations from a re-analysis of the deposited data

How the results depend on the processing

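Of the 240 recomputed log2 differences of member probes, 225 kept their direction and their side of the adjusted p threshold. The filters on dim probes, the variance trend, the methods' t-test and the replicate block cannot change a log2 difference. There the direction was fixed in advance, and only the adjusted p could move. In the reported processing 0 member probes had an adjusted p under 0.05, so that a kept side means a probe stayed uncalled. MYCN had an adjusted p under 0.05 with normexp, at -0.55, and with the variance trend, at -0.58, so that each gave 1 member probe called. The count past 1.5-fold lower was 0 with normexp, 0 with median scaling, 2 with the 75th percentile over detected probes and 4 with no filter on dim probes. The count higher was 1 with quantile normalization, 3 with median scaling and between 0 and 1 when 1 array was left out. The MYC-activated median was -0.10 with normexp, -0.086 with quantile, -0.12 with the detected-probe percentile, 0.27 with median scaling and -0.11 with no scaling, and -0.13 to -0.10 without 1 array. Median scaling turned MXI1 to 0.30 and 0.029, MAX to 0.35 and 0.38, MGA to 0.22, MXD1 to 0.21 and MNT to 0.35, with a shift of 0.38 in all genes. Leaving out 1 array gave MAX values from -0.21 to 0.12 and from -0.045 to 0.021, MNT from -0.11 to 0.026 and MXD3 from -0.10 to 0.35. Over the whole array, normexp called 877 probes, median scaling 466, the variance trend 1593, and the methods' t-test 1 after adjustment. With the replicate block, MYC was at 0.53 and MYCN at -0.58, each with an adjusted p of 0.223 by limma. Same-numbered arrays did not deviate together (r = -0.03 over probes), and the labels do not say whether the numbers pair them. That correlation cannot show whether same-numbered samples were handled together. No slide or scan block was run. Processed signals of 29.2 to 44.3 limit the MYC value.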
